A study of Mus musculus with 1536 samples.

Results

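Trh encodes the precursor of thyrotropin-releasing hormone (TRH), and the cells described here are the serotonin neurons of the mouse raphe nuclei that carried its messenger RNA. The cells were chosen by their measured Trh level: a cell was counted as a Trh cell when Trh reached 10 CPM (reads of a gene scaled to a common total per cell), and 125 of the 999 cells in the table passed that minimum. All cells came from male and female C57BL/6J mice 40 to 45 days old of the genotype Sert-tdTomato-Cre crossed with Ai14, a reporter line, so that tdTomato marked cells in which the Sert (Slc6a4, serotonin transporter) driver had been active, now or earlier. Single tdTomato-positive cells were sorted into wells and each was made into 1 Smart-seq2 library, a full-length method without molecular identifiers. The Principal DR dissection, referred to as pDR, held the dorsal raphe (DR) without its caudal extension and gave 290 cells on 5 plates. The All DR dissection gave 709 cells on 11 plates and, by the design text, held the whole DR together with the median raphe (MR). No group was treated, and the labels tie no cell to an animal, so each dissection was 1 sample, no test was possible, and differences are described by their size and by how many plates shared their direction.

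Serotonin neurons of the raphe release serotonin over most of the brain, and many of them also carry genes for a second transmitter or a peptide. Those of the dorsal and lateral DR often carry Gad1 and Gad2, the genes of the enzymes that make GABA, whereas those of the ventral DR often carry Slc17a8 (Vglut3), which loads glutamate into vesicles. TRH is best known as the hypothalamic peptide that makes the pituitary release thyrotropin, and outside the hypothalamus it acts as a neuropeptide. It is a tripeptide cut from a large precursor by prohormone convertases, trimmed by carboxypeptidase E, amidated by Pam and closed at its other end by a glutaminyl cyclase.

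Trh lies on chromosome 6 at 92242061 to 92244650 on the minus strand (GENCODE M21, build GRCm38), with no other annotated gene over it. The windows around the start sites of the gene that chose the cells, of the gene with the highest contrast (Asb4) and of the GABA and glutamate genes that separated the cells most plainly (Gad1, Slc17a8) are shown 5′ to 3′ from RefSeq (GRCm38.p6), from 250 bases before the start to 50 after it. Capitals mark matches on either strand to TGACNTCA, which includes the cyclic AMP response element TGACGTCA, and to TATAA. Matches to different motifs do not overlap in these windows, and the capitals in Gad1 are 2 overlapping matches to TATAA, 1 on each strand.
Trh, chr6:92244601-92244900, minus strand: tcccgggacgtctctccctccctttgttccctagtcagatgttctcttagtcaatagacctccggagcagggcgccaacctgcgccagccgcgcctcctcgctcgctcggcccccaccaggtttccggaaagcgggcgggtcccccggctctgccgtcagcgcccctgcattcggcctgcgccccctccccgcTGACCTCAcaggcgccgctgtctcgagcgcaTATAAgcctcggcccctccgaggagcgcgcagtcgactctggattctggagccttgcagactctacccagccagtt
Asb4, chr6:5383136-5383435, plus strand: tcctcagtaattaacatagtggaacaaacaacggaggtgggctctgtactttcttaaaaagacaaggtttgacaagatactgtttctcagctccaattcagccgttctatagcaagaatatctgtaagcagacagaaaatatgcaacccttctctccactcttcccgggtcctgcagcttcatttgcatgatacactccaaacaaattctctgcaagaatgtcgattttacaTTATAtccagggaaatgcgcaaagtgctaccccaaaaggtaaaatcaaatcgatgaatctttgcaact
Gad1, chr2:70561879-70562178, plus strand: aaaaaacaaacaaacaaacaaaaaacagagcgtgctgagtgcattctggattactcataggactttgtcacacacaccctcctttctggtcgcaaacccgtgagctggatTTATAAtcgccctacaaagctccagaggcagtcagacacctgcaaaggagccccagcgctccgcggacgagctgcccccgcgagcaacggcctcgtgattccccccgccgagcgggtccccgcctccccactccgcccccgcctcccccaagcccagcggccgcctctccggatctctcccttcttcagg
Slc17a8, chr10:89621200-89621499, minus strand: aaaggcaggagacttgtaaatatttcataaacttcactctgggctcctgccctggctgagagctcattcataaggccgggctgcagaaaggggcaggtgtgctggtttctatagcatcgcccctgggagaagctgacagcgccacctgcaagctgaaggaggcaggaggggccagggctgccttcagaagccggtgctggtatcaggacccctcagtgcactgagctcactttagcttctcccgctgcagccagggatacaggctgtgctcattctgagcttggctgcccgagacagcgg
The Trh window held TGACCTCA from 57 bases before the start and TATAA from 26 bases before it. The Asb4 window held TATAA on the opposite strand, read here as TTATA, the Gad1 window held TATAA on both strands, and the Slc17a8 window shown held neither motif. RefSeq gives a second start for Asb4 and for Slc17a8. The second window of Asb4 (chr6:5390160-5390459) held neither motif, and that of Slc17a8 (chr10:89599766-89600065) held TATAA from 184 bases before its start. TGACNTCA was found in 8.83% and TATAA in 24.9% of all 32851 promoter windows of the same length. Among genes tested in the comparison described below, TGACNTCA was in 6 of 67 matched genes called higher in Trh cells, in 6 of 61 called lower and in 8.72% of all 6308 matched. The element TGACGTCA itself was in 0 of the 67, in 0 of the 61 and in 4.14% of all matched. TATAA was in 10 of the 67 (14.9%), in 16 of the 61 (26.2%) and in 14.7% of all matched. These are matches of letters and not binding sites.

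The pDR held 90 Trh cells, 31.0% of its cells (exact 95% interval 25.8 to 36.7, counting error only), and the All DR dissection held 35, or 4.94% (3.46 to 6.80). On the pDR plates the Trh cells numbered 39 of 93 on SER12, 23 of 85 on SER13, 9 of 43 on SER25, 10 of 28 on SER39 and 9 of 41 on SER40. The share ranged from 20.9% to 41.9% over these 5 plates and from 0 to 8.11% over the 11 plates of the All DR dissection, so the plates of the 2 dissections did not overlap. SER56 and SER67, with 27 and 30 cells, held no Trh cell. The comparison cells, with Trh at 0, numbered 192 in the pDR and 669 in the All DR dissection. Another 13 cells lay above 0 and under 10 CPM and are in neither set. Trh itself was the value that chose the cells and is given only as a description: its median among the Trh cells was 137 CPM in the pDR (10.3 to 2339) and 77.4 CPM in the All DR dissection (10.1 to 1641), and 13 of the 125 cells exceeded 1000 CPM. The lowest values kept were 10.06, 10.33 and 10.83 CPM, and the highest left out were 9.997, 9.87 and 9.33 CPM, so the minimum fell in no gap.

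**Figure D1:**
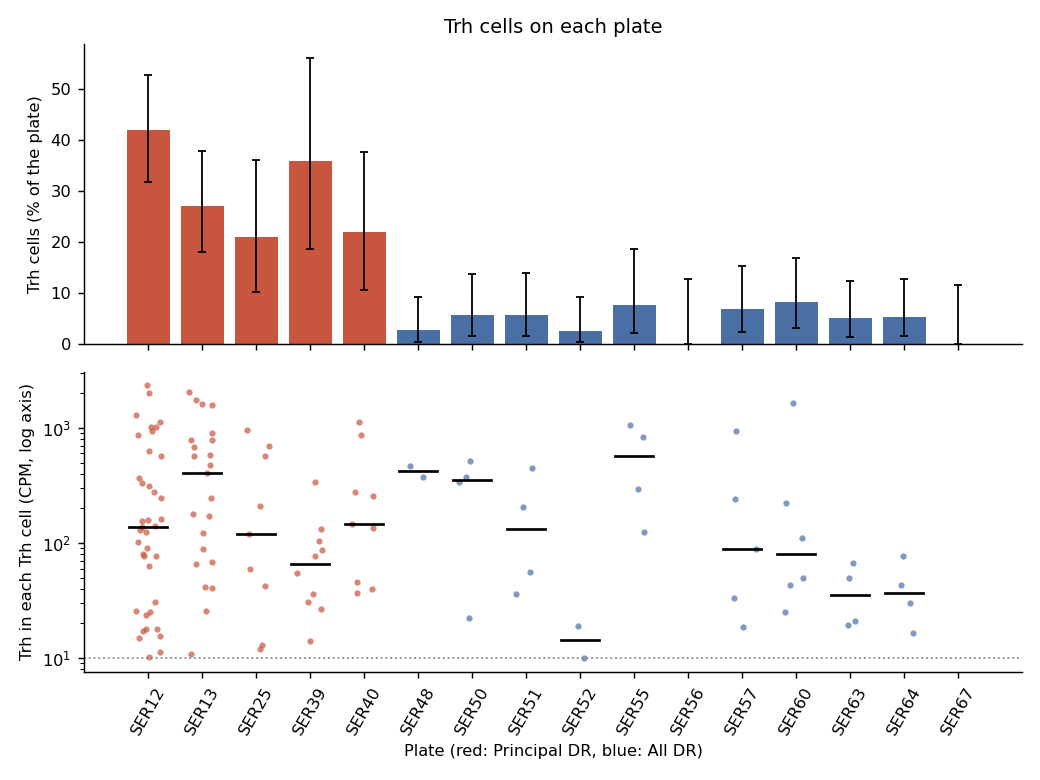
Top, share of cells on each plate that were Trh cells (%, bars, with exact 95% intervals). Bottom, Trh in each Trh cell (CPM, log axis), with the plate's median as a line and the 10 CPM minimum dotted. The 5 pDR plates (red) held 20.9% to 41.9% Trh cells, and no All DR plate (blue) exceeded 8.11%.

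Depth did not separate the sets in 1 direction. Reads on genes per cell ranged from 231674 to 2780443 in the pDR, with a median of 751694 in Trh cells and 753678 in cells with Trh at 0, and the Trh cells had the higher median on 2 of 5 plates. The median number of detected genes was 9854.5 and 9657. These pooled medians hide SER40, where Trh cells had a median of 1585960 reads and 9873 genes. The cells with Trh at 0 on that plate had 887498 reads and 9152 genes. No pair of cells held identical counts.

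The Trh cells were serotonin neurons by their markers. Tph2 (the rate-limiting enzyme of serotonin synthesis), Fev (a transcription factor that maintains serotonin identity), Slc6a4, Slc18a2 (which loads monoamines into vesicles) and Ddc had at least 1 read in all 90 and all 35 Trh cells. Of the 15 tested genes for synthesis and transport of serotonin and its cofactor, 0 were called in either direction, and their median contrast was 0.08. Over all genes tested 1.13% were called higher and 0.957% lower, so 0 of 15 is near those shares. A contrast is the log2 of mean CPM plus 1 in Trh cells over mean CPM plus 1 in cells with Trh at 0 of the same plate, averaged over plates of equal weight, with the SD over plates. A gene was tested where the 2 means averaged at least 10 CPM, and called where the contrast reached 1 (2-fold) in size with the same sign on every plate. Tph2 had a contrast of -0.03 ± 0.05, whereas Slc6a4 stood at 0.26 ± 0.11 and Slc18a2 at 0.36 ± 0.12, each above 0 on 5 of 5 plates but under the 2-fold size. Fev averaged 320, 277, 319, 253 and 299 CPM in the Trh cells of SER12, SER13, SER25, SER39 and SER40 against 198, 197, 198, 163 and 184 CPM in cells with Trh at 0. The plate means of Fev did not overlap between the sets, although its contrast of 0.64 ± 0.09 was not large enough to be called.

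Across the genome, 91 of 8047 genes tested were called higher in the Trh cells of the pDR, 1.13% of them, and 77 were called lower, 0.957%. The median contrast of all genes tested was -0.03. The differences below are read against those shares, under which a short list would mostly hold 0 calls. The gene lists were chosen with earlier results of these data known, so their counts are no independent evidence. How many of all genes tested had the same sign on every plate was not counted. Such signs, above and below, therefore only describe the genes that were not called. Counting ignored strand, so a gene under an antisense gene, such as Gad1 under Gad1os, Kctd4 under Gtf2f2 and Tpbg under 9330154J02Rik, could hold reads of its partner.

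**Figure D2:**
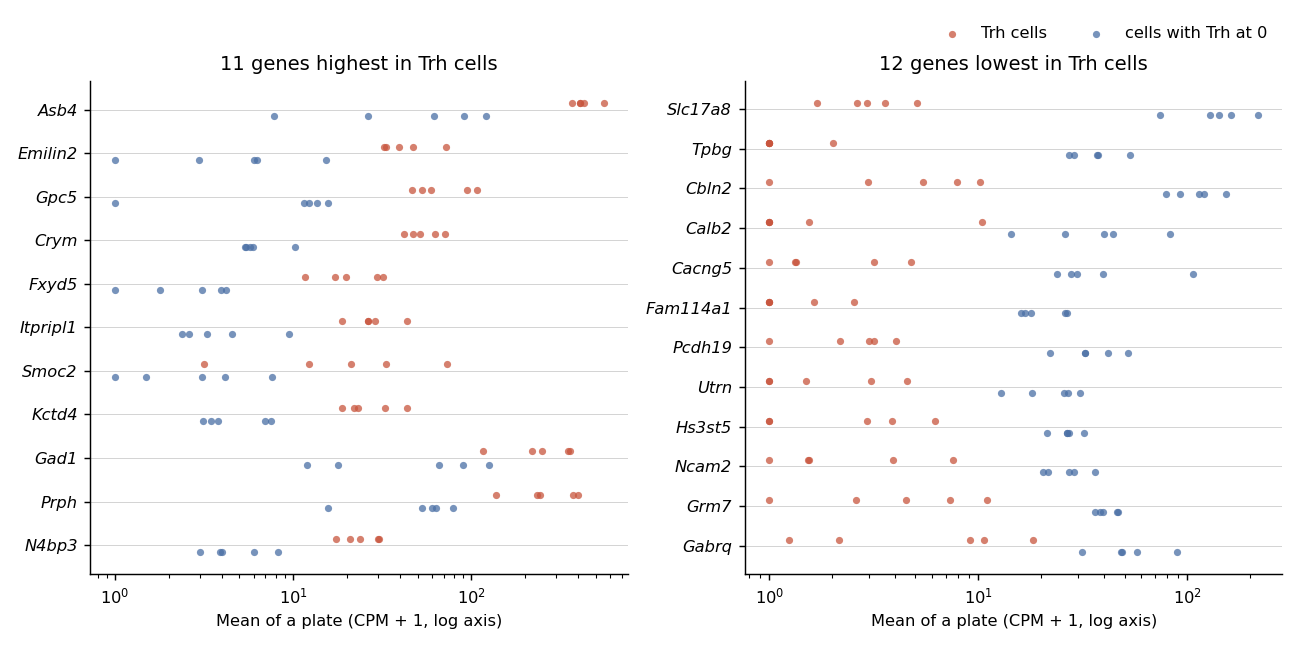
Mean of each pDR plate (CPM + 1, log axis) for the 11 genes called highest (left) and the 12 called lowest (right) in Trh cells. Red points are the 5 plate means of Trh cells and blue points those of cells with Trh at 0. For Asb4 the red points lie between 365 and 553 CPM and the blue ones between 6.8 and 120 CPM, and for Slc17a8 the red ones lie at or under 4.1 CPM.

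Trh cells and the others differed plainly in transmitter genes. At least 1 read of Gad1 or Gad2 was present in 89 of 90 Trh cells of the pDR (98.9%, 94.0 to 100.0) against 86 of 192 cells with Trh at 0 (44.8%, 37.6 to 52.1). Both genes were found together in 57 Trh cells, Gad2 alone in 27 and Gad1 alone in 5. Gad1 averaged 348, 358, 218, 249 and 116 CPM in the Trh cells of the 5 plates, in the order above, against 89.4, 126, 10.9, 17.0 and 65.3 CPM, and was called higher (2.45 ± 1.47). The lowest Trh plate, SER40, lay under the highest comparison plate, SER13, although Trh cells were above their own plate's comparison cells throughout. Gad2 was present in 84 of 90 Trh cells and in 82 of 192 others, but its level was higher on only 3 of 5 plates (0.64 ± 0.81), so it was not called. Gad1 lies on chromosome 2 at 70553072 to 70602014. The vesicular GABA transporter gene Slc32a1, a marker of classical GABA neurons, had a read in 0 of 90 Trh cells, which allows a share of up to 3.33% (taken for a count of 0 as 3 cells of the total), and in 0 of 35 in the All DR dissection.

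Slc17a8 was the gene called lowest in Trh cells. It averaged 4.1, 1.9, 2.6, 1.6 and 0.7 CPM in the Trh cells of the 5 plates against 127, 73.0, 160, 216 and 140 CPM in cells with Trh at 0 (contrast -5.51 ± 0.86). Every plate mean of Trh cells lay far under every mean of the comparison cells. A read of it was found in 13 of 90 Trh cells (14.4%, 7.92 to 23.4) and in 117 of 192 others (60.9%, 53.7 to 67.9). All 13 also carried Gad1 or Gad2, as did 89 of all 90. Of the 8 glutamate genes tested, Slc17a8 and Slc1a2, a plasma membrane glutamate transporter best known from astrocytes, were called lower (-2.76 ± 1.43 for the latter). The other 6 were not called. Slc17a8 lies on chromosome 10 at 89574020 to 89621253.

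Of 17 genes in the list of TRH processing, secretory granule and TRH receptor genes, 14 were tested and 0 were called. Their median contrast was 0.05. Of these 14 genes Qpctl, a second glutaminyl cyclase gene, was found in the fewest cells, with a read in 77 of 90 Trh cells and 151 of 192 others. Pam, the amidating enzyme, averaged 770, 821, 623, 1531 and 1415 CPM in the Trh cells of the 5 plates against 305, 372, 212, 961 and 1250 CPM. It was above the comparison cells on every plate and just missed the 2-fold size (0.98 ± 0.55). The convertase Pcsk1 (0.46 ± 0.20), the glutaminyl cyclase Qpct (0.62 ± 0.24) and Pgpep1, a pyroglutamyl peptidase (0.71 ± 0.28), were above 0 on 5 of 5 plates without being called. The granule protein gene Chgb lay below 0 on all 5 (-0.66 ± 0.28). No background share was counted for such signs, so they are not a result about the list. Trhde, which encodes the membrane enzyme that breaks down TRH outside cells, had a read in 0 of 90 Trh cells of the pDR, which by the same rule allows a share of up to 3.33%, and in 29 of 192 cells with Trh at 0 (15.1%). In the All DR dissection it had a read in 1 of 35 Trh cells and in 133 of 669 others (19.9%). Its level was too low for it to be tested. The receptor genes Trhr and Trhr2 stayed under 0.1 CPM on average in both sets of the pDR.

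Crym was the most even of the genes called higher. It encodes mu-crystallin, a protein that binds thyroid hormone in the cytosol, and lies on chromosome 7 at 120186380 to 120202111. It averaged 40.8, 70.1, 46.0, 50.6 and 61.6 CPM in the Trh cells of the 5 plates against 4.5, 9.3, 4.4, 4.7 and 5.0 CPM (3.08 ± 0.23), with no overlap between the sets. At 10 CPM or more it was found in 50 of 90 Trh cells and 26 of 192 others. It was the only one of 7 tested thyroid hormone genes to be called. The receptor gene Thra stood at -0.08 ± 0.18. Thrb, the other receptor gene, was too low to be tested but had a read in 23 of 90 Trh cells (25.6%) and 19 of 192 others (9.90%).

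Among other peptides, galanin was called and dynorphin was not. Gal averaged 32.3, 20.8, 45.1, 48.6 and 22.5 CPM in Trh cells against 13.4, 5.8, 13.9, 4.8 and 8.3 CPM (1.79 ± 0.75), and had a read in 53 of 90 Trh cells and 62 of 192 others. With Trh cells taken at 100 CPM or more, the contrast of Gal was 0.59 and it was not called. Pdyn, the dynorphin precursor gene, averaged 215, 40.3, 27.4, 86.8 and 142 CPM against 77.0, 28.9, 34.0, 6.0 and 22.9 CPM. Its contrast was 1.57 ± 1.58, and SER25 ran the other way. Pdyn and Gal reached 10 CPM together in 27 of 90 Trh cells (30.0%) against 20 of 192 others (10.4%). Spp1, the gene of the secreted protein osteopontin, averaged 33.6 CPM in Trh cells and 1.39 CPM in the others and was higher on 4 of 5 plates (3.19 ± 1.97). Crh, the gene of corticotropin-releasing hormone, had a read in 9 of 90 Trh cells and 30 of 192 others, and Sst in 10 and 13. The peptide genes Cartpt, Cck and Npy had no read in any of the 90. Of 42 neuropeptide genes in the list, 36 were under 10 CPM.

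The highest contrast belonged to Asb4, the gene of a subunit of a ubiquitin ligase, on chromosome 6 at 5383386 to 5433022. It averaged 406, 553, 365, 409 and 428 CPM in the Trh cells of the 5 plates against 61.1, 90.7, 6.8, 25.3 and 120 CPM (3.33 ± 1.46), and 81 of 90 Trh cells reached 10 CPM. Prph, which encodes the intermediate filament peripherin, averaged 243, 397, 373, 136 and 235 CPM against 51.7, 62.7, 59.0, 14.8 and 78.2 CPM (2.44 ± 0.58). In both genes the lowest plate of Trh cells exceeded the highest plate of comparison cells. Emilin2 (an extracellular matrix protein, 3.27 ± 1.31), Gpc5 (a glypican, 3.12 ± 1.95), Fxyd5 (a regulator of the sodium pump, 3.07 ± 0.45), Itpripl1 (2.84 ± 0.99) and Smoc2 (a secreted matrix protein, 2.74 ± 2.06) followed. Gpc5, Emilin2, Fxyd5 and Smoc2 had no read in the 17 comparison cells of SER39, so their contrast there rests on the added 1 CPM. Without that plate Gpc5 fell to 2.26 and Smoc2 to 1.88, and Smoc2 was no longer called. Kctd4 (2.54 ± 0.78) and N4bp3 (2.35 ± 0.58) came next.

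Of the 7 tested transcription factor genes known from raphe groups, 3 were called higher and 1 lower. Pax5, best known from the midbrain-hindbrain boundary and B cells, averaged 24.8, 29.4, 24.1, 22.1 and 45.9 CPM in Trh cells against 7.0, 8.2, 7.1, 2.2 and 8.4 CPM (2.04 ± 0.52), again without overlap. Bcl11a (1.59 ± 0.84) and the nuclear protein gene Aff2 (1.09 ± 0.32) were the others called higher. Rorb, an orphan nuclear receptor, was called lower (-2.05 ± 0.95), although it reached 10 CPM in a like share of cells, 19 of 90 and 43 of 192. Neither Aff2 nor Rorb was called without SER12. Among 6 tested serotonin identity factors none was called, with Gata2 at 0.44 ± 0.24, Gata3 at 0.33 ± 0.16 and the median at 0.31.

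Most tested receptor genes were not called. Of 35 tested genes for receptors of small transmitters, 8 were called lower and 1 higher. The share of 22.9% lower stands beside 0.957% of all genes, and the median contrast over the list was -0.07. In this list 26 genes were not called, and 15 lay above 0. It was chosen with earlier results of these data known, so that share is no independent evidence. A gene can also pass the 10 CPM minimum through the comparison cells alone, and can then be called lower but not higher. The gene called higher was Hrh3, a histamine receptor that inhibits release, with 155, 139, 134, 135 and 140 CPM in Trh cells against 60.4, 65.1, 70.5, 36.9 and 55.9 CPM (1.30 ± 0.35), and 89 of 90 Trh cells reached 10 CPM. Among the genes called lower were those of the metabotropic glutamate receptors Grm7 (-3.39 ± 1.33) and Grm8 (-2.10 ± 0.85), the AMPA receptor subunit Gria1 (-1.12 ± 0.22), the GABA-A receptor subunits Gabrq (-3.26 ± 1.62) and Gabrg3 (-2.15 ± 1.17), and the GABA-B subunit Gabbr2 (-1.02 ± 0.83). Gabbr2 was no longer called without SER13 or without SER39. Gabrq averaged 17.2, 9.6, 8.1, 1.1 and 0.2 CPM in Trh cells against 56.2, 87.7, 30.2, 47.7 and 46.8 CPM. Gabra4 ran the other way on 5 of 5 plates without being called (0.99 ± 0.33). Of 9 tested peptide receptor genes, Prlr, the prolactin receptor, was called higher (1.37 ± 0.63), and Crhr2, a receptor of the CRH family, and Hcrtr2, an orexin receptor, were called lower (-2.93 ± 1.62 and -1.04 ± 0.50). Without SER25, Crhr2 stood at -2.33, and without SER13 or SER25 Hcrtr2 was no longer called. Hcrtr1, the other orexin receptor, stood at 0.16 ± 0.28. Of 4 tested serotonin receptor genes none was called, with the autoreceptor genes Htr1a at -0.03 ± 0.14 and Htr1b at 0.51 ± 0.27.

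Among 43 tested ion channel genes 0 were called higher and 4 lower, beside 1.13% and 0.957% of all genes tested. The 0 called higher is near that share. The genes called lower were Cacng5, an AMPA receptor auxiliary subunit of the calcium channel gamma family (-4.31 ± 1.68, and -3.71 without SER39), Cacna2d3 (2.71 against 19.8 CPM) and the fast potassium channel genes Kcnc4 (-1.46 ± 0.89) and Kcnc2 (-1.32 ± 0.59). Cacng3 and Kcnk9 were above 0 on all 5 (0.44 ± 0.10 and 0.33 ± 0.18), without being called.

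Most tested genes of cell contact and wiring were not called, 15 of 21 cadherins and protocadherins (median contrast -0.23) and 23 of 28 axon guidance genes (median 0.02). Over all genes tested 1.13% were called higher and 0.957% lower. Of the cadherins and protocadherins, 5 were called lower, led by Pcdh19 (-3.84 ± 1.13) and followed by Pcdh11x, Pcdh15, Cdh18 and Cdh11, with contrasts of -2.60 to -1.31. Without SER39, Pcdh15 was no longer called. Cdh13, the gene of T-cadherin, was called higher. It averaged 1091, 1272, 1137, 910.5 and 1069.5 CPM in Trh cells against 440.5, 565, 368, 378 and 559 CPM (1.26 ± 0.25), and every Trh cell reached 10 CPM. Of the axon guidance genes, the semaphorin gene Sema5a (-2.23 ± 0.81), Slit2 (-2.13 ± 0.41) and the ephrin receptor genes Epha7 (-1.95 ± 0.84) and Epha5 (-1.36 ± 0.92) were called lower, Epha5 not without SER39. Ret, the signalling receptor for the glial cell line-derived neurotrophic factor family, was called higher, with 110, 49.6, 63.3, 72.4 and 81.2 CPM against 31.7, 13.1, 21.6, 26.6 and 15.0 CPM (1.78 ± 0.37), while its co-receptor gene Gfra1 stood at 0.32 ± 0.42. Among 18 tested calcium-binding and filament genes, Calb2 (calretinin, -4.33 ± 0.92) and Nefl (a neurofilament subunit, -1.23 ± 0.53) were called lower and Prph higher.

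The remaining genes among the 12 lowest were Tpbg (-4.95 ± 0.75), the synapse organiser gene Cbln2 (-4.70 ± 1.42), Fam114a1 (-3.92 ± 0.59), Utrn (utrophin, -3.57 ± 0.89), Hs3st5 (a heparan sulfate sulfotransferase, -3.50 ± 1.26) and the adhesion gene Ncam2 (-3.49 ± 1.10). Cbln2 averaged 9.2, 2.0, 0, 6.9 and 4.4 CPM in Trh cells against 152, 113, 118, 77.5 and 91.2 CPM, and it reached 10 CPM in 8 of 90 Trh cells and 150 of 192 others. Tpbg had no read in the Trh cells of 4 plates, so that its contrast depends on the added 1 CPM, and Fam114a1 was not called without SER13 or SER39. Of 10 tested markers of other raphe serotonin groups, a list chosen with results of these cells known and so no independent evidence, 6 were called lower (Crhr2, Dlk1, Hcrtr2, Rorb, Slc17a8 and Tpbg) and 0 higher. Of 6 tested immediate-early genes, which rise with recent activity or handling, none was called, with Fos at -0.77 ± 1.65.

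Because nearly all Trh cells carried Gad genes, the contrast was repeated in the pDR among cells with at least 10 CPM of Gad1 and Gad2 together, 88 Trh cells and 84 cells with Trh at 0. It called 90 of 8034 genes higher (1.12%) and 44 lower (0.548%). Of the 91 and 77 genes called over all cells, 48 and 33 were called again in the same direction, and 91 and 73 kept the sign of the average. The highest were Crym (3.53), Asb4 (3.31), Gal (2.81), Emilin2 (2.79), Fxyd5 (2.61) and Gpc5 (2.57), and the lowest were Slc17a8 (-4.22), Cbln2 (-4.20), Ncam2 (-3.33), Rab3b (-3.31), Pcdh19 (-3.22) and Hs3st5 (-3.16). Gad1 itself was not called among Gad cells (1.19). Genes fell into different patterns over the 3 kinds of pDR cells. Asb4 averaged 442 CPM in Trh cells, 139 CPM in cells with Gad and no Trh, and 11.8 CPM in cells with neither. Crym averaged 52.0, 6.12 and 5.95 CPM in the same order, so that cells with Gad and no Trh lay at the level of cells with neither. Gal, at 31.5, 6.61 and 11.8 CPM, was lowest in the cells with Gad and no Trh. Slc17a8 went from 2.76 to 52.9 and 184 CPM.

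The All DR dissection, whose cells and plates are separate, gave the same contrast on 7 plates with 31 Trh cells and 464 cells with Trh at 0, which there include cells of the MR and the caudal DR. It called 119 of 7967 genes higher (1.49%) and 135 lower (1.69%). Of the genes called higher in the pDR 53 were called higher here, 58.2% of the pDR list and 44.5% of this one, and of those called lower 47 were, 61.0% and 34.8%. No gene was called in opposite directions. The sign of the average was the same for 86 of 91 and 75 of 77. Asb4 averaged 248 to 527 CPM on the 7 plates in Trh cells and 4.5 to 45.7 CPM in the others (4.38 ± 1.02). Prph (3.69 ± 1.39), Pax5 (3.74) and Cdh13 (2.35) were again called higher, and Cbln2 (-5.62 ± 2.69), Tpbg (-4.42 ± 0.67) and Rab3b (-6.23 ± 1.82), the gene of a vesicle protein, lower. Slc17a8, the gene called lowest in the pDR, was not called here (-3.28 ± 2.26). It averaged 0 to 17.0 CPM in the Trh cells of 6 plates against 90.4 to 111.6 CPM in the others, but 97.4 against 80.5 CPM on SER57. Crym, at 11.4 to 190 CPM in Trh cells and 7.7 to 15.7 CPM in the others, was above on 6 of 7 plates and so was not called (2.15 ± 1.51). Gad1 had no read in the Trh cells of SER55 and SER64 and was not called (1.88 ± 3.46). The pDR genes Gal, Smoc2 and Prlr averaged below 0 here (-0.63, -0.48 and -0.56), as did B3galt1 and Lrch3.

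**Figure D3:**
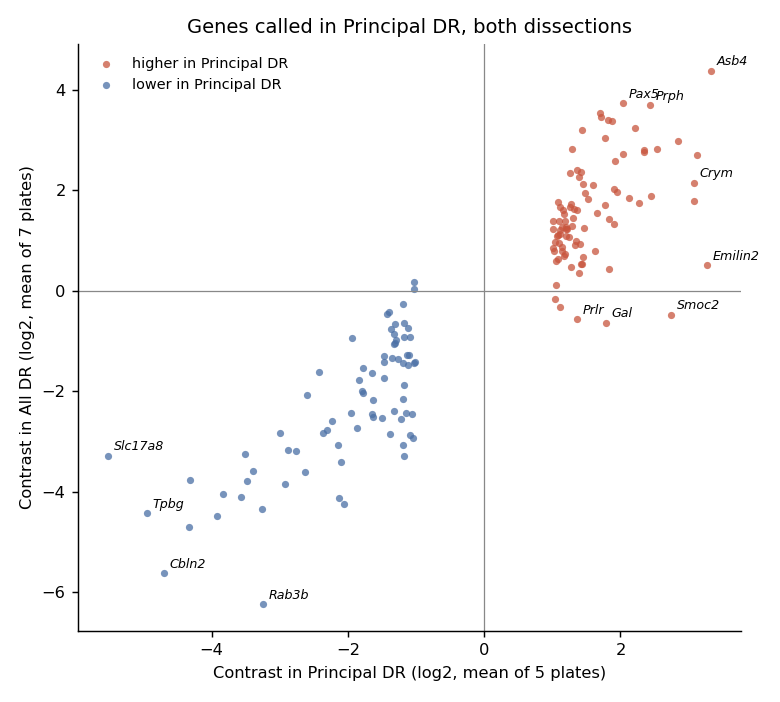
Contrast of the 89 genes called higher and 76 called lower in the pDR, without predicted genes (x axis, log2, mean of 5 plates) against its contrast in the All DR dissection (y axis, log2, mean of 7 plates). Genes called higher are red and lower blue. All but 5 of the genes called higher, among them Gal and Smoc2, and all but 2 of those called lower lie on the same side of 0 in both dissections.

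Transmitter genes were also counted in the Trh cells of the All DR dissection. Gad1 or Gad2 had a read in 28 of 35 (80.0%, 63.1 to 91.6), Gad1 in 11 of 35 (31.4%, 16.9 to 49.3) against 62 of 90 in the pDR (68.9%, 58.3 to 78.2), and Slc17a8 in 13 of 35 (37.1%, 21.5 to 55.1) against 13 of 90. By plate, the share of Trh cells with Gad1 ranged from 44.4% to 82.6% in the pDR and from 0 to 60.0% on the 7 All DR plates, and that with Slc17a8 from 10.0% to 22.2% and from 0 to 60.0%. The plates of the dissections therefore overlapped for both genes, and dissection and plate cannot be told apart. Among All DR cells with Trh at 0, Gad1 or Gad2 had a read in 135 of 669 (20.2%) and Slc17a8 in 501 of 669 (74.9%).

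The 12 genes highest and the 12 lowest in the pDR were then counted in single cells. The count in pDR cells only describes the choice of genes, whereas that in All DR cells used cells that had no part in it. Among the 35 Trh cells of the All DR dissection a median of 8 of the 12 highest genes (0 to 10) and 0 of the 12 lowest (0 to 8) reached 10 CPM. Among the 669 cells with Trh at 0 the medians were 1 and 7. At least 6 of the highest genes were present in 27 of 35 Trh cells and in 7 of 669 others, and all 7 were among the 118 cells with at least 10 CPM of Gad. The 669 include cells of the MR and the caudal DR. In the pDR, where the genes were chosen, at least 6 were present in 73 of 90 Trh cells. They were also present in 12 of 84 pDR cells with Gad and Trh at 0 (14.3%). At the other end, 4 of the 35 carried at least as many of the lowest genes as of the highest. Their Trh was near the minimum, at 10.1, 16.5, 18.8 and 19.4 CPM. Another cell at 19.0 CPM carried 10 of the highest genes and 2 of the lowest. The 13 cells with Trh above 0 and under 10 CPM split by dissection: the 8 in the pDR carried a median of 6.5 of the highest genes, and the 5 in the All DR dissection a median of 1.

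**Figure D4:**
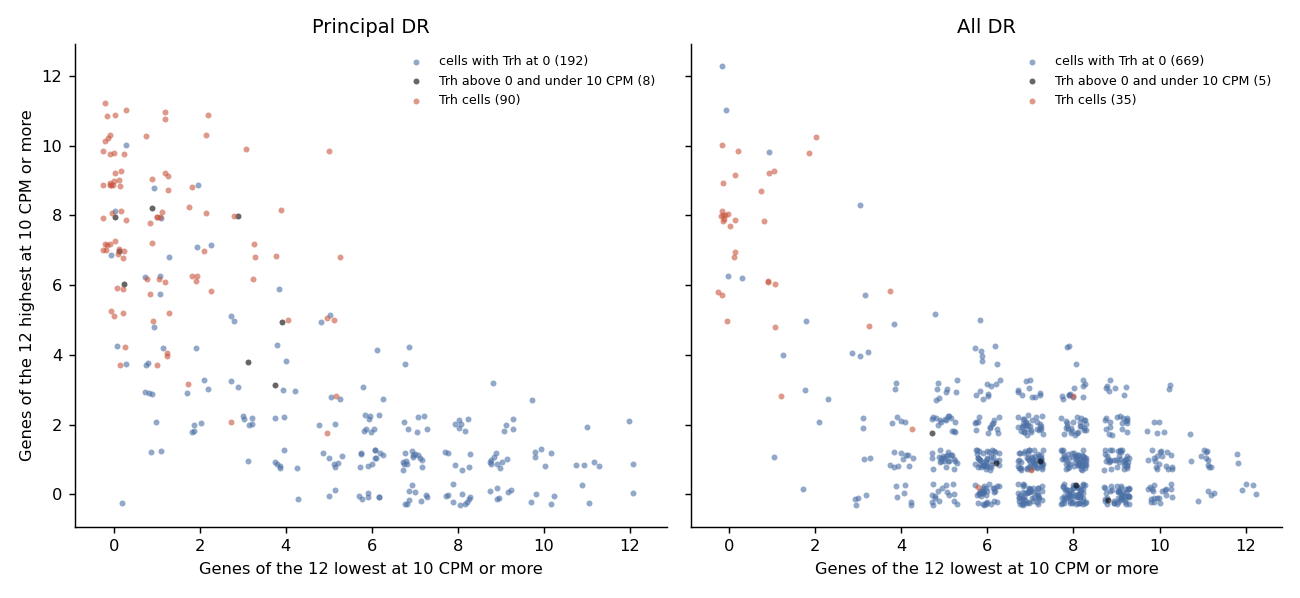
Each point is a cell, placed by how many of the 12 genes lowest in Trh cells (x axis) and of the 12 highest (y axis) reached 10 CPM in it, with points spread slightly. The genes were chosen in the left panel. In the right panel 27 of 35 Trh cells (red) and 7 of 669 cells with Trh at 0 (blue) carried at least 6 of the highest genes. The 669 include cells of the MR and the caudal DR.

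Within the pDR, nearest neighbours in 20 principal components computed without Trh placed Trh cells together on average, though not plainly on SER39. Of the 15 nearest cells of the same plate, an average of 63.3% were Trh cells, against 32.2% of the other cells of the plate, a ratio of 1.96. The ratio was 1.87 on SER12, 2.72 on SER13, 1.71 on SER25, 1.30 on SER39 and 1.78 on SER40, and 85 of 90 Trh cells had more Trh neighbours than their plate's share. SER25, SER39 and SER40 held 9, 10 and 9 Trh cells, too few to fill 15 places. The largest possible ratio therefore differed by plate, and the ratios cannot be compared between plates. Cells with Trh at 0 averaged 16.0% Trh neighbours, though single cells among them reached 86.7%. SER39 stood apart. Its Trh cells averaged 43.3% Trh neighbours against a share of 33.3%, and its 17 cells with Trh at 0 averaged 42.0% against 37.0%. The 2 sets were thus close on that plate, which held the fewest pDR cells, 28 in all.

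Trh cells also differed among themselves by how much Trh they carried. Since the level of Trh made this split, its partners are described only. Of the pDR Trh cells, 53 had at least 100 CPM and 37 had 10 to 100 CPM. Between them 42 of 7995 genes were called higher (0.525%) and 47 lower (0.588%) at the higher level, over 5 plates of equal weight. SER25, SER39 and SER40 held only 9, 10 and 9 Trh cells over both levels, so 1 cell can set a plate's mean there. Pdyn and Gal, the peptide genes, were lower where Trh was high. Pdyn averaged 47.8 CPM at high and 191 CPM at low Trh over plates (-2.29, with plates from -4.32 to -1.12), and had a read in 20 of 53 cells (37.7%, 24.8 to 52.1) against 29 of 37 (78.4%, 61.8 to 90.2). Gal averaged 15.6 and 51.4 CPM (-1.74 ± 1.42), with plates from -3.90 on SER39 to -0.06 on SER40. Hcrtr2 followed them (-3.11 ± 1.89). Crym went with Trh, at 70.6 CPM against 25.6 CPM (1.52 ± 0.92), and the cadherin gene Cdh4 did so too (2.59 ± 0.43). Gad1, Gad2, Asb4, Prph, Pax5, Ret and Fev were not called between the 2 levels.

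**Figure D5:**
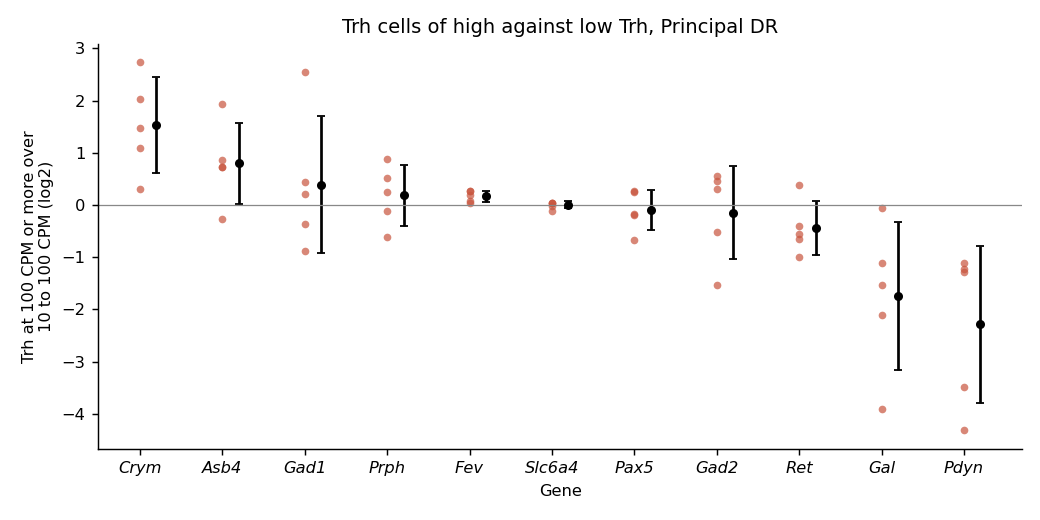
Contrast of Trh cells with at least 100 CPM of Trh over those with 10 to 100 CPM in the pDR (y axis, log2) for 11 genes (x axis). Red points are the 5 plates, and black points with bars the mean and SD over plates. Crym lies above 0 and Gal and Pdyn below 0 on every plate. The points of SER25, SER39 and SER40 rest on 9, 10 and 9 Trh cells over both levels.

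Few Trh cells carried Crh or Slc17a8 at 10 CPM or more. In the pDR 6 of 90 carried Crh, on 3 plates, and 7 carried Slc17a8, on 4 plates. All of them had at least 10 CPM of Gad, as did 88 of all 90. With so few cells on each plate they were pooled over plates, and no gene was called. Against the 64 Trh cells without Crh on the same plates, the 6 with it had the largest excess of Serpinf1 (47.3 against 4.39 CPM), Cbln2, H2.Q2, Xlr3a, Il18 and Zbtb8b, and the largest deficit of Necab1 (0 against 22.5 CPM), Dlk1 (2.05 against 68.9 CPM), Spp1, Ighm and Cnr1. Against 70 without it, the 7 cells with Slc17a8 had the largest excess of Hs3st2, Cnr1 (154 against 15.2 CPM, reaching 10 CPM in 5 of 7 cells and 14 of 70), Ighm, Id2, Npy2r and Sdk1. Their largest deficits were of Sostdc1 (1.54 against 21.8 CPM), Zfp397, Clic1, Gbe1, Fam19a1 and S100a11. Differences of over 2-fold were found for 348 of 8026 genes in the first split and for 470 of 8114 in the second, a number that sets of 6 and 7 cells make large. In the All DR dissection 2 and 12 of 35 Trh cells carried Crh and Slc17a8 at that level.

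The 8 oligodendrocyte markers summed to a median of 111 CPM in the 90 Trh cells (2.07 to 3086) and 99.5 CPM in the 192 others (0 to 1827), and 6 of the 8 had a median of 0 in both. The 6 astrocyte markers had a median sum of 0 in Trh cells (0 to 177) and 8.59 CPM in the others (0 to 235). This list includes Slc1a2, which was called lower, and the part of astrocyte RNA in that result was not tested. The 6 microglial, 5 endothelial and 9 other-neuron markers had a median sum of 0 in both sets, with highest sums of 23.1, 12.0 and 33.1 CPM in Trh cells. Without the 1 Trh cell and 4 others whose oligodendrocyte or astrocyte markers exceeded 500 CPM, 90 and 73 genes were called, 89 and 73 of them shared with the lists above. No pDR cell in either set reached that limit by astrocyte markers, so this step removed cells by oligodendrocyte markers only and says nothing of astrocyte RNA.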

How the data were processed

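Single tdTomato-positive cells were profiled by Smart-seq2. The submitters' notes name bcl2fastq 2.19.0.316, STAR 2.6.1a, HTSeq 0.11.2 and mm10 (GRCm38). The authors deposited CPM for 53263 genes in 999 of 1536 labelled cells, not log-transformed. In each cell 100% of values above 0 were whole multiples, within 0.001, of 1 read, so counts were recovered for depth and shares. No count test was run, since no animals are named. Reads are not molecules, and intervals cover counting error only. Counting ignored strand, and the annotation version is not given in the sources used here.

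The members, the gene lists and the tests were chosen with earlier results of these data known, and the split by Trh level, the genes counted per cell, and the genes Trhde, Thrb, Spp1, Qpctl, Cdh4, B3galt1 and Lrch3 after values were seen. Contrasts were computed with NumPy 2.4.6 in Python 3.11.15 on plates with at least 3 cells of each set, and were tested on simulated data. Named were the 12 highest and 12 lowest called genes (6 in smaller contrasts) without predicted genes, and called or explained genes of the lists, of which 1 gene was not in the table. Components used ln(CPM+1) of genes averaging 10 CPM. Exact Clopper-Pearson intervals came from SciPy 1.17.1. Doublets were not sought, since cells were sorted singly. Some genes that the rule names are not reported here. Alternatives are given at the end.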

Additional observations from a re-analysis of the deposited data

Results flagged for a closer look

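In 112 sets of plate contrasts (56 genes in 2 dissections), 7 had 1 plate far from the rest by Dixon's criterion, which chance passes in about 1 of 20 sets. In the pDR these were Gpc5 (6.56) and Gal (3.08) on SER39, both the highest plate, and Cdh11 (-0.10) on SER12, nearest to 0. In the All DR dissection they were Itpripl1 (1.70) and Tpbg (-2.93) on SER63, Calb2 (0.55) on SER57, where Calb2 averaged 97.0 CPM in 5 Trh cells, and Prlr (-3.66) on SER55. The 7 All DR plates in this contrast held 4 to 6 Trh cells each, so 1 cell can set a plate's mean. Of the 56 genes, 0 lay above 0 on every plate of 1 dissection and below 0 on every plate of the other.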

How the results depend on the processing

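No paired analysis was possible because the replicate numbers only follow the order of the cells and name no animal (the contrasts themselves compare cells of the same plate). All 56 named genes kept their direction in 952 values over 17 alternatives, 1 of them (leaving out cells with glial markers) chosen after seeing the data. In some of these the direction could not change. The filters and a minimum of 5 cells per set left each contrast as it was. Leaving out a plate cannot reverse a gene with the same sign on every plate. With 10 CPM added, 31 of the 56 contrasts moved by at least their SD over plates, and 11 genes were no longer called. With mean log2(CPM+1), 21 moved and 4 genes were no longer called. The counts of 91 higher and 77 lower genes ranged from 92 to 106 and from 76 to 98 with each pDR plate left out. They were 198 higher with the difference of mean log2(CPM+1), 48 and 46 with 10 CPM added, 183 and 239 with a filter at 1 CPM, 28 and 16 with one at 50 CPM, and 138 lower with Trh at 100 CPM or more. The filters change how many genes are tested. For the rest the cause was not tested. With both dissections together 19 of the 56 genes were no longer called, among them Gad1, Crym, Gal and Slc17a8, and with a plate left out 1 to 5 were not, with Smoc2, Epha5 and Pcdh15 among 5 without SER39, Aff2 and Rorb without SER12, Hcrtr2 without SER13 or SER25, and Fam114a1 and Gabbr2 without SER13 or SER39. At 100 CPM the Trh cells numbered 69. In the pDR contrast at that level 5 of the 56 genes were no longer called: Aff2, Fam114a1, Gabbr2, Gal and Pcdh15. The share of pDR Trh cells with Slc17a8 was 7.78% and with Gal 46.7% at 10 CPM. Among Gad cells 148 genes were higher with Gad at 50 CPM and 210 with mean logs, and in the All DR plates 273 with mean logs. Limited after seeing the data to Gad cells, the All DR plates called 99 higher and 170 lower, 64 and 85 of them shared with the full set. The splits by Crh and Slc17a8 gave 758 and 1025 genes past 2-fold with mean logs. The neighbour ratio ranged from 1.65 to 2.30. What limits these results is that cells of unnamed animals share plates, and that genes under 10 CPM, most peptide and receptor genes among them, were not tested.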
